A study of Arabidopsis thaliana with 30 samples.

Results

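The response of Arabidopsis seedlings to 24 h of far-red light was compared between the pifq mutant and the wild type. For each probe set the quantity of interest was the pifq response minus the wild-type response, each response being the level after far-red light minus the level in white light, on the log2 scale. This difference of responses uses 12 of the 30 arrays of the series. It is positive where a transcript ended up relatively higher after far-red light in pifq than in the wild type, and negative where it ended up relatively lower, whatever the direction of either response.

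The 4 groups were pifq FR24, pifq WL24, WT FR24 and WT WL24, with 3 biological replicates each, grown and processed separately. All were whole seedlings from seeds plated on GM medium without sucrose, given 1.5 h of white light, kept for 5 days at 4 °C in the dark and then grown for 2 days at 21 °C in white light of 19 µmol/m2/s with a red to far-red ratio of 6.48. FR24 seedlings then had far-red light added for 24 h, which brought the ratio to 0.006, and WL24 seedlings stayed in white light for the same 24 h, so that all 12 samples were 3 days old. The wild type was Columbia. The pifq seedlings were of 1 line that carries mutations of 4 genes together, PIF1, PIF3, PIF4 and PIF5. The genotype labels could not be checked by the PIF transcripts, for which the annotation names no separate probe set.

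Plants sense shading by leaves as a drop in the ratio of red to far-red light, which shifts the phytochrome photoreceptors towards their inactive form. Active phytochromes bind the PIF proteins, which are basic helix-loop-helix transcription factors, and lead to their degradation. In shade the PIFs accumulate and act on genes of auxin response, cell wall loosening and elongation growth, the set of changes called shade avoidance.

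Levels are log2 RMA signals, and array medians lay between 5.55 and 5.64. Within a group, arrays correlated across probe sets at 0.9945 to 0.9983, and no array repeated another. Differences are log2 values ± SE from limma, with p-values adjusted by the Benjamini-Hochberg method over 22746 probe sets, and the threshold for a call was an adjusted p under 0.05. Whole seedlings were measured, so a change in the share of a cell type and a change of RNA per cell cannot be told apart.

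The difference of responses was called for 854 probe sets, 3.75% of those tested. It was positive for 506 (2.22%) and negative for 348 (1.53%), and 58 positive (0.255%) and 24 negative calls (0.106%) were at least 2-fold. The response itself was called for 3377 probe sets in pifq (14.8%), with 1729 rises (7.6%) and 1648 falls (7.25%), and for 5283 in the wild type (23.2%), with 2641 rises and 2642 falls (11.6% each). Fitted to the 12 arrays alone, in place of all 30, the difference was called for 389 probe sets. A locus and no other gene was annotated for 428 of the 854 calls, and 71 had a gene symbol, 44 positive and 27 negative, so about as many calls remain without a gene name here as with a locus.

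Most of the calls came from transcripts that responded in the wild type and responded less, or not detectably, in pifq. Among the 854 calls, 456 (53.4%) had a called response in the wild type only, 143 in pifq only, 186 in both genotypes with the same sign and 45 in both with opposite signs, while 24 had neither response called. The wild-type response was the larger in size for 669 of them (78.3%). Where the difference was positive, the median response was 0.04 in pifq and -0.60 in the wild type. Where it was negative, the median response was -0.10 in pifq and 0.45 in the wild type. Over all probe sets tested, the median response was -0.03 in pifq and 0.00 in the wild type, and the correlation of both responses across probe sets was 0.648, a description over features that share the same 12 arrays.

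**Figure D1:**
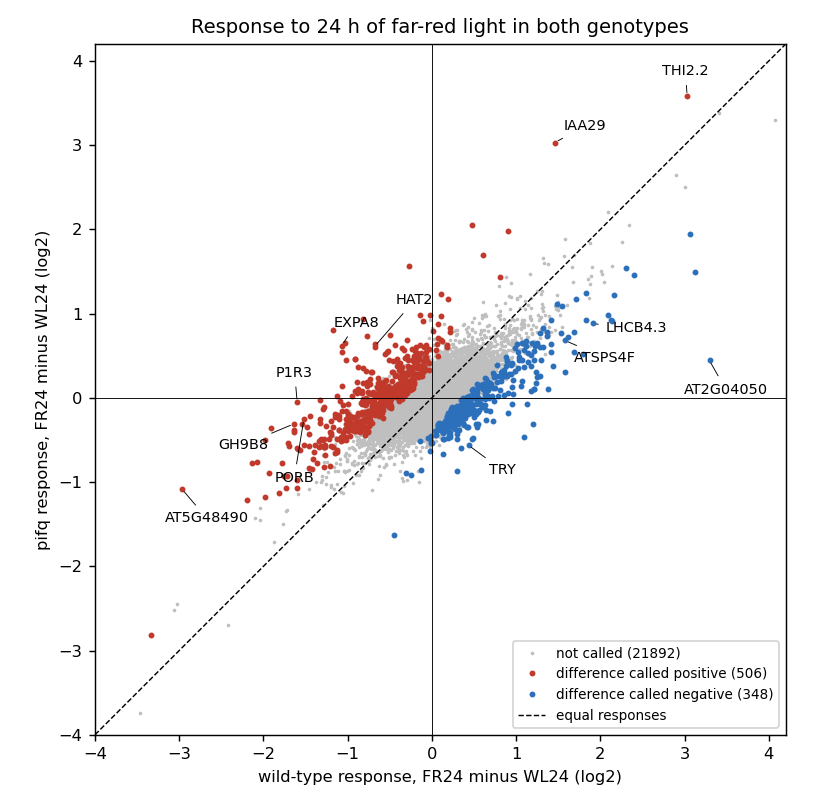
Response to 24 h of far-red light (FR24 minus WL24, log2) of each of 22746 probe sets in pifq (vertical axis) against the wild type (horizontal axis), with the 506 positive and 348 negative called differences coloured. Points above the dashed line responded more positively in pifq. The positive calls lie mainly where the wild type fell and pifq stayed near 0, and the negative calls mainly where the wild type rose.

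The same responses were also described with probe sets picked by 1 genotype and read in the other. The arrays of the genotype read entered the choice only through the shared estimate of the spread. Both responses come from the arrays behind the calls above, so this description is not independent support for the pattern of those calls. The 180 probe sets (0.791%) called with a rise of at least 2-fold in the wild type had a median response of 0.84 in pifq, against 1.28 in the wild type, and the median share seen in pifq was 64.6%. The 156 (0.686%) that fell at least 2-fold in the wild type had a median response of -0.61 in pifq, against -1.26 in the wild type, a median share of 47.5%. In the other direction, the 77 probe sets (0.339%) with a rise of at least 2-fold in pifq had medians of 1.33 in pifq and 1.46 in the wild type, and the 34 (0.149%) with such a fall had medians of -1.14 in pifq and -1.66 in the wild type. Picking by a genotype tends to enlarge the response of that genotype. The difference was called for 99 of the 156 wild-type falls, all positive, and for 68 of the 180 wild-type rises, 66 of them negative. These counts share the wild-type arrays with the choice, so their signs follow in part from it.

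A difference of responses can arise from a genotype difference after far-red light, from one in white light, or from both, and the calls were spread over these. Levels differed between genotypes by a called amount in FR24 only for 369 of the 854 (43.2%), in WL24 only for 297 (34.8%), in both conditions with opposite signs for 76 and in both with the same sign for 14. For 98 neither was called. Across all probe sets, pifq differed from the wild type in 1891 after far-red light (8.31%) and in 1957 in white light (8.6%). The genes below are ordered by these patterns, within the roles of their products.

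EXPA8 (AT2G40610) encodes an alpha-expansin, a protein that loosens cell walls. Its log2 signals were 9.06, 9.0 and 8.97 in pifq FR24, 8.45, 8.07 and 8.66 in pifq WL24, 8.08, 8.34 and 8.01 in WT FR24, and 9.07, 9.22 and 9.34 in WT WL24. Far-red light was followed by a higher level in pifq and a lower level in the wild type, with no overlap of arrays in either genotype. Both responses were called: EXPA8 rose by 0.62 ± 0.11 in pifq (adjusted p = 0.000155) and fell by 1.07 ± 0.11 in the wild type (adjusted p = 5.79e-09). The difference of 1.69 ± 0.15 (adjusted p = 2.04e-08), 3.22-fold, was the largest among genes with a symbol. Against the 2-day-old seedlings before treatment (WL0), in place of WL24, it was 0.96 ± 0.15 (adjusted p = 0.000243). The genotypes stood in opposite order in the 2 conditions, pifq above the wild type by 0.87 in FR24 and below it by 0.82 in WL24.

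HAT2 (AT5G47370), which encodes a class II homeodomain-leucine zipper protein and is a known early shade-induced gene, had the same crossed pattern. Its signals were 7.41, 7.31 and 7.21 in pifq FR24, 6.78, 6.75 and 6.56 in pifq WL24, 6.96, 6.58 and 6.79 in WT FR24, and 7.39, 7.41 and 7.55 in WT WL24. In each genotype the conditions did not overlap, and the pifq FR24 arrays overlapped with the WT WL24 arrays. HAT2 rose by 0.61 ± 0.09 in pifq and fell by 0.68 ± 0.09 in the wild type, a difference of 1.29 ± 0.13 (adjusted p = 1.32e-07), which was 0.77 ± 0.13 against WL0 (adjusted p = 0.000421).

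IAA29 (AT4G32280), an auxin-inducible gene whose Aux/IAA product represses auxin signalling, rose in both genotypes and more in pifq. Its signals were 8.06, 7.74 and 7.74 in pifq FR24, 4.77, 5.02 and 4.65 in pifq WL24, 7.65, 7.81 and 7.46 in WT FR24, and 6.2, 6.19 and 6.16 in WT WL24. The FR24 arrays of the genotypes overlapped, while all 3 pifq WL24 arrays lay below all 3 WT WL24 arrays. The rise was 8.16-fold in pifq and 2.75-fold in the wild type, a difference of 1.57 ± 0.18 (adjusted p = 1.2e-06). The genotypes differed by 0.20 in FR24 (adjusted p = 0.371) and by -1.37 in WL24 (adjusted p = 1.59e-08), so the difference of responses lay in the white-light level. Measured against WL0 it was 0.21 (adjusted p = 0.736).

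GH9B8 (AT2G32990), a gene for a family 9 glycosyl hydrolase, a family that includes endoglucanases, also differed in white light. Its signals were 3.98, 4.00 and 3.69 in pifq FR24, 4.07, 4.16 and 4.38 in pifq WL24, 4.05, 4.1 and 4.08 in WT FR24, and 5.65, 5.63 and 5.85 in WT WL24. Only the WT WL24 arrays stood above 5, and the other 9 arrays lay below the array medians, a range in which RMA compresses folds. GH9B8 fell by 1.64 ± 0.12 in the wild type, and its value in pifq was -0.31 ± 0.12 (adjusted p = 0.0715). The difference was 1.33 ± 0.17 (adjusted p = 4.95e-06) against WL24 and 0.04 (adjusted p = 0.969) against WL0.

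PORB (AT4G27440) encodes a protochlorophyllide oxidoreductase, the light-dependent enzyme of chlorophyll synthesis, and differed after far-red light. Its signals were 10.39, 10.27 and 10.18 in pifq FR24, 10.54, 10.40 and 10.63 in pifq WL24, 8.68, 8.74 and 8.80 in WT FR24, and 10.45, 10.27 and 10.07 in WT WL24. The 3 WT FR24 arrays lay more than 1 log2 unit below the other 9. PORB fell 2.87-fold in the wild type (adjusted p = 6.93e-13), and its response in pifq was -0.25 ± 0.10 (adjusted p = 0.101). The genotypes differed 2.90-fold in FR24 (adjusted p = 4.05e-12) and by 0.26 in WL24 (adjusted p = 0.111), and the difference of responses was 1.28 ± 0.14 (adjusted p = 9.47e-07).

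P1R3 (AT3G29370) also crossed. Its signals were 5.95, 5.84 and 5.82 in pifq FR24, 5.92, 6.05 and 5.78 in pifq WL24, 5.01, 4.86 and 5.02 in WT FR24, and 6.6, 6.64 and 6.47 in WT WL24. The pifq arrays of both conditions overlapped and lay between those of the wild type. The response was -0.05 ± 0.14 in pifq (adjusted p = 0.867), and P1R3 fell by 1.60 ± 0.14 in the wild type, a difference of 1.56 ± 0.20 (adjusted p = 5.2e-06). The differences of EXPA8, HAT2, IAA29, GH9B8, PORB and P1R3 stayed called when any 1 of the 12 arrays was left out.

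**Figure D2:**
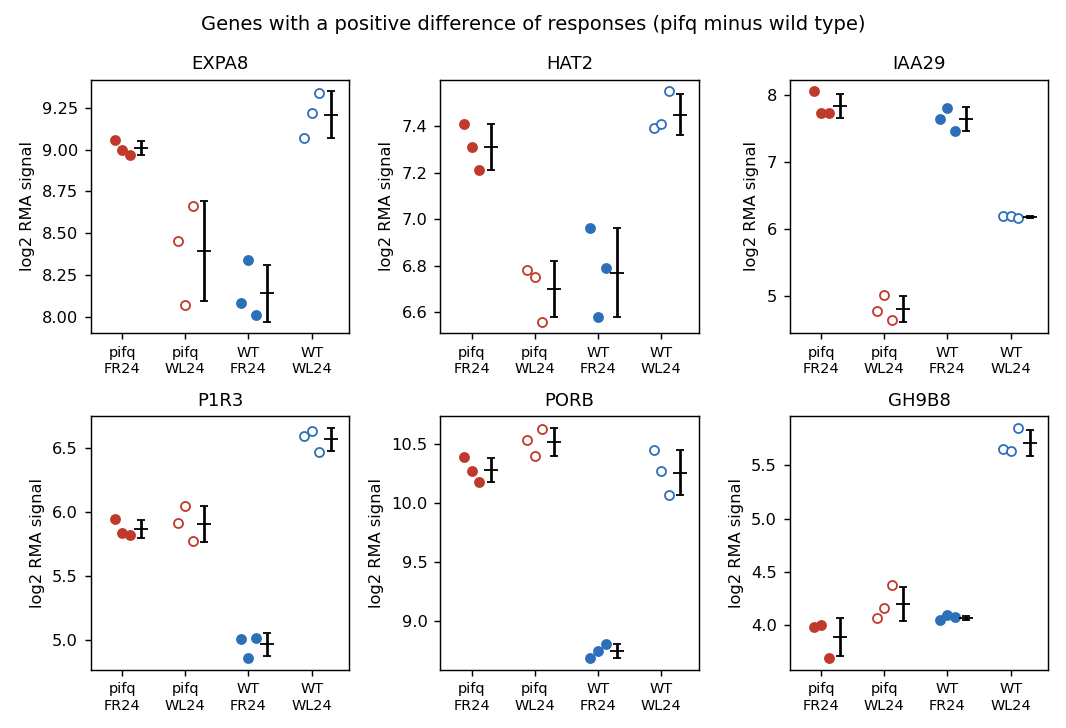
Log2 RMA signal of 6 genes with a positive difference of responses, in pifq FR24, pifq WL24, WT FR24 and WT WL24 (points are arrays, bars are the mean ± SD, n = 3; vertical axes differ and do not start at 0). In EXPA8, HAT2 and P1R3 the genotypes stand in opposite order in the 2 conditions, in IAA29 and GH9B8 they differ mainly in WL24, and in PORB they differ in FR24.

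Other genes with positive differences fell into the same patterns. TRM22 (AT1G67040) fell in both genotypes, by 0.57 ± 0.12 in pifq and by 1.46 ± 0.12 in the wild type, and its call was lost against WL0 (0.61, adjusted p = 0.0502). UGT88A1, for a UDP-glycosyltransferase, fell by 1.00 ± 0.08 in the wild type, with -0.21 ± 0.08 in pifq (adjusted p = 0.0767), and TBL15, of the TRICHOME BIREFRINGENCE-LIKE family of cell wall acetyltransferases, fell by 0.78 ± 0.10, with -0.01 ± 0.10 in pifq (adjusted p = 0.977). Both differed between genotypes in FR24 and not by a called amount in WL24. BRH1 (AT3G61460), a brassinosteroid-responsive gene for a RING-H2 protein, had a difference of 0.76 ± 0.11 (adjusted p = 6.74e-05), with a called genotype difference in both conditions, 0.44 in FR24 and -0.31 in WL24, and was 0.49 against WL0 (adjusted p = 0.014). The differences of CML23 (0.82 ± 0.21), a calmodulin-like gene, and NAMT1 (0.77 ± 0.17), a nicotinate methyltransferase gene, lay in WL24, where pifq was lower by 0.95 in CML23 and by 0.87 in NAMT1. Against WL0 the value was 0.18 for CML23 (adjusted p = 0.822) and turned to -0.30 for NAMT1 (adjusted p = 0.553). CML23 lost its call without WT FR24 replicate 3, WT WL24 replicate 2, pifq FR24 replicate 2 or pifq WL24 replicate 3 (highest adjusted p = 0.0693). CSLC5, of the family that makes the xyloglucan backbone, had a difference of 0.77 ± 0.20 and lost its call without WT FR24 replicate 3, WT WL24 replicate 2, pifq FR24 replicate 1 or 2, or pifq WL24 replicate 2 (highest adjusted p = 0.0712), and against WL0 (0.43, adjusted p = 0.367).

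LHCB4.3 (AT2G40100), for a minor antenna protein of photosystem II, had the largest negative difference among genes with a symbol. Its signals were 9.64, 9.38 and 9.53 in pifq FR24, 8.67, 8.46 and 8.76 in pifq WL24, 10.02, 10.06 and 9.73 in WT FR24, and 8.19, 8.09 and 7.78 in WT WL24. It rose in both genotypes with no overlap, and pifq lay below the wild type in FR24 and above it in WL24. The rise was 1.84-fold in pifq and 3.77-fold in the wild type, a difference of -1.03 ± 0.16 (adjusted p = 0.000159). Its paralog LHCB4.2 (AT3G08940) moved the other way, with 0.04 ± 0.07 in pifq (adjusted p = 0.742) and a fall of 0.53 ± 0.07 in the wild type, a difference of 0.58 ± 0.10 (adjusted p = 0.00102). The third paralog, LHCB4.1, had a difference of 0.16 ± 0.11 (adjusted p = 0.466).

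TRY (AT5G53200), for a single-repeat MYB protein that represses trichome formation, fell in pifq and rose in the wild type. Its signals were 5.03, 4.69 and 4.67 in pifq FR24, 5.54, 5.06 and 5.46 in pifq WL24, 5.77, 5.74 and 5.59 in WT FR24, and 5.41, 4.94 and 5.44 in WT WL24. The WL24 arrays of the genotypes overlapped, and the pifq FR24 arrays all lay below the WT FR24 arrays. The responses were -0.56 ± 0.14 in pifq and 0.43 ± 0.14 in the wild type, a difference of -0.99 ± 0.20 (adjusted p = 0.00316).

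ATSPS4F (AT4G10120), which encodes a sucrose phosphate synthase, rose in both genotypes. Its signals were 7.87, 7.82 and 7.97 in pifq FR24, 7.32, 7.03 and 7.26 in pifq WL24, 8.70, 8.79 and 8.82 in WT FR24, and 7.37, 7.12 and 7.09 in WT WL24. The WL24 arrays overlapped and the FR24 arrays did not, pifq being lower. The rise was 0.68 ± 0.14 in pifq and 1.58 ± 0.14 in the wild type, a difference of -0.89 ± 0.20 (adjusted p = 0.00672) that was -1.46 ± 0.20 against WL0. CYP71B26, a cytochrome P450 gene, likewise differed in FR24, with 0.03 ± 0.12 in pifq (adjusted p = 0.89) and a rise of 0.86 ± 0.12 in the wild type, a difference of -0.83 ± 0.17 (adjusted p = 0.00389).

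MAP1C (AT1G13270) and PDF1A (AT1G15390) encode organellar enzymes, a methionine aminopeptidase and a peptide deformylase, that trim the start of newly made proteins. MAP1C signals were 7.98, 7.95 and 8.01 in pifq FR24, 7.98, 7.66 and 8.01 in pifq WL24, 8.02, 8.05 and 8.17 in WT FR24, and 7.28, 7.19 and 7.36 in WT WL24. Only the WT WL24 arrays stood apart, below the rest, and MAP1C rose by 0.80 ± 0.09 in the wild type, with 0.09 ± 0.09 in pifq (adjusted p = 0.556). PDF1A fell by 0.37 ± 0.08 in pifq and rose by 0.27 ± 0.08 in the wild type. The differences were -0.71 ± 0.13 for MAP1C (adjusted p = 0.0014) and -0.64 ± 0.12 for PDF1A (adjusted p = 0.00122), and against WL0 they were -0.15 for MAP1C (adjusted p = 0.764) and -0.20 for PDF1A (adjusted p = 0.55). LHCB4.3, LHCB4.2, TRY, ATSPS4F, CYP71B26, MAP1C and PDF1A kept their calls without any 1 array.

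**Figure D3:**
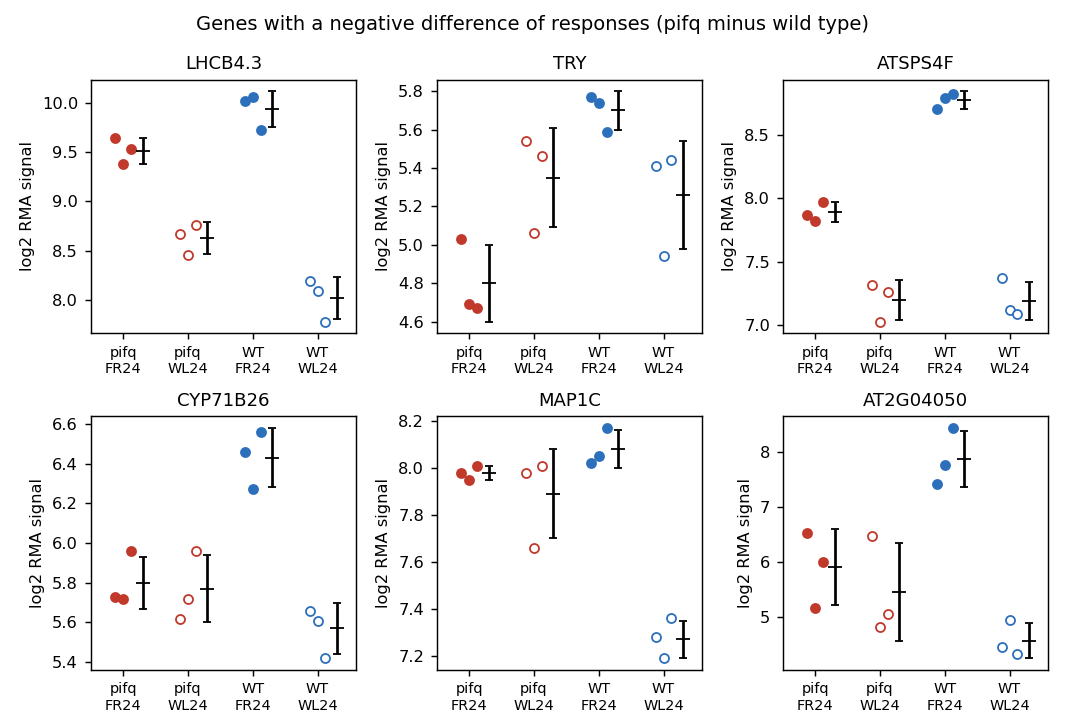
Log2 RMA signal of 6 genes with a negative difference of responses, in pifq FR24, pifq WL24, WT FR24 and WT WL24 (points are arrays, bars are the mean ± SD, n = 3; vertical axes differ and do not start at 0). TRY, ATSPS4F, CYP71B26 and AT2G04050 differ between genotypes in FR24, MAP1C in WL24, and LHCB4.3 in both conditions with opposite signs.

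The other 9 of the 15 most negative differences with a symbol, of which EXPA7 is given with the root genes, lay between -0.77 and -0.54 and were each lost without some single array. LPR1, for a ferroxidase of root growth under low phosphate, rose by 0.61 ± 0.10 in pifq and by 1.22 ± 0.10 in the wild type, and its difference of -0.61 ± 0.15 was not called without pifq FR24 replicate 2 (adjusted p = 0.0571). ALDH6B2, for a dehydrogenase of valine degradation, rose by 0.49 ± 0.10 in pifq and by 1.04 ± 0.10 in the wild type, and its difference of -0.55 ± 0.14 was not called without WT WL24 replicate 3 or pifq FR24 replicate 1 (highest adjusted p = 0.063) and was -0.12 against WL0 (adjusted p = 0.816). ROXY1, a glutaredoxin gene of petal development, fell by 0.48 ± 0.10 in pifq, with 0.14 ± 0.10 in the wild type (adjusted p = 0.387). Its difference of -0.62 ± 0.15 was not called without pifq FR24 replicate 2 (adjusted p = 0.05) and turned to 0.05 against WL0 (adjusted p = 0.959). IMP4, of the machinery of ribosomal RNA processing, had a difference of -0.64 ± 0.16 that was lost without WT FR24 replicate 3, WT WL24 replicate 1 or 3, pifq FR24 replicate 2 or pifq WL24 replicate 3 (highest adjusted p = 0.0818). SBT4.12, a subtilase gene, had -0.61 ± 0.15 and lost its call without WT FR24 replicate 3, WT WL24 replicate 3, pifq FR24 replicate 1 or pifq WL24 replicate 3 (highest adjusted p = 0.0694), and its value against WL0 was -0.06 (adjusted p = 0.946). LPA66, for an RNA editing factor of the chloroplast, had -0.54 ± 0.15 and lost its call without WT FR24 replicate 1 or 3, WT WL24 replicate 1 or 2, pifq FR24 replicate 2 or pifq WL24 replicate 3 (highest adjusted p = 0.112). Against WL0 the calls of IMP4 (-0.46), LPA66 (-0.46) and PLIM2a (-0.34) were lost. PLIM2a, for an actin-binding LIM protein, had -0.62 ± 0.17 and kept its call only without WT FR24 replicate 3, WT WL24 replicate 2, pifq FR24 replicate 3 or pifq WL24 replicate 2 (otherwise up to 0.0969). The chloroplast gene ndhG, for a subunit of the NADH dehydrogenase-like complex, had -0.77 ± 0.22 and kept its call only without WT FR24 replicate 1, WT WL24 replicate 1 or pifq WL24 replicate 3 (otherwise up to 0.106), and against WL0 it had -0.08 (adjusted p = 0.95).

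**Figure D4:**
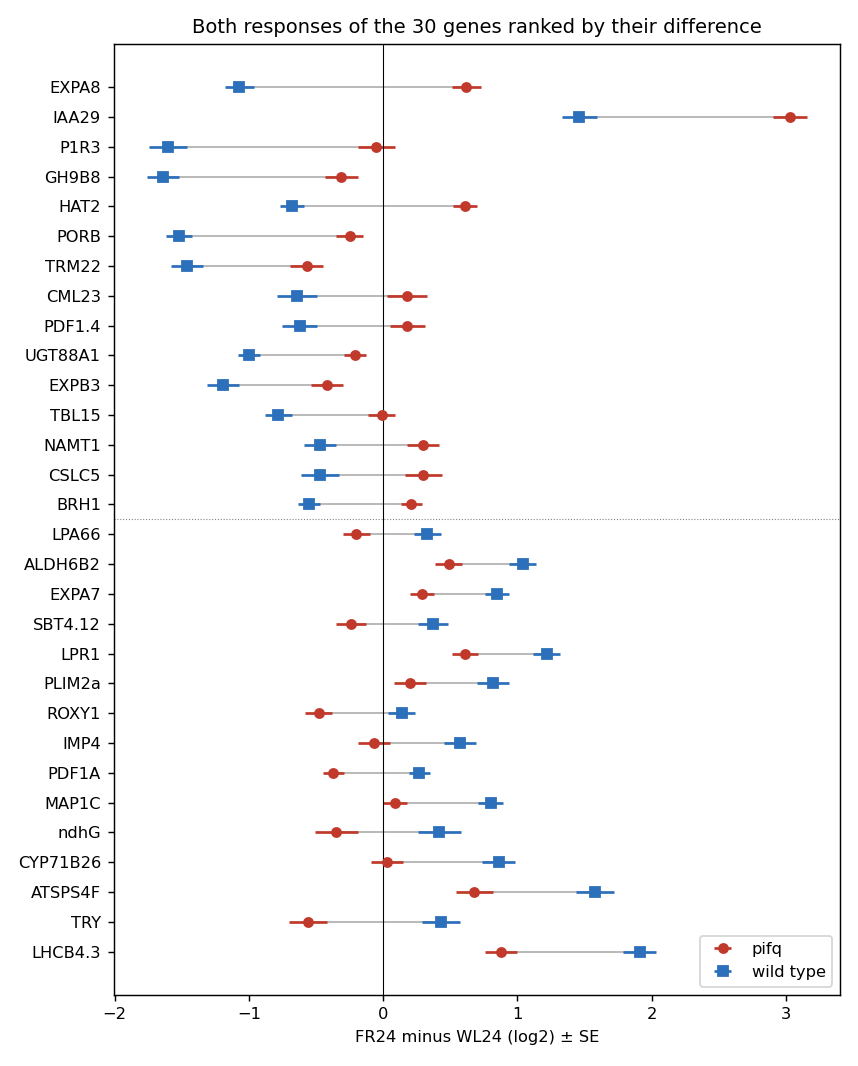
Response to 24 h of far-red light (FR24 minus WL24, log2, ± SE) in pifq (circles) and the wild type (squares) for the 15 most positive and the 15 most negative called differences among genes with a symbol, in order of the difference. Above the dotted line the wild-type values other than that of IAA29 are negative, and below it all 15 are positive.

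Loci without a symbol in the tables used here held the largest differences. AT5G48490 had signals of 11.42, 11.66 and 11.40 in pifq FR24, 12.54, 12.61 and 12.56 in pifq WL24, 9.83, 9.86 and 9.74 in WT FR24, and 12.79, 12.74 and 12.82 in WT WL24. It fell 2.11-fold in pifq and 7.84-fold in the wild type, with no overlap between conditions, a difference of 1.89 ± 0.11 (adjusted p = 1.93e-12). AT5G02540 rose by 1.56 ± 0.17 in pifq, with -0.28 ± 0.17 in the wild type (adjusted p = 0.258), a difference of 1.84 ± 0.23 (adjusted p = 6.36e-06). AT5G62280 rose by 0.65 ± 0.10 in pifq and fell by 1.03 ± 0.10 in the wild type, a difference of 1.68 ± 0.14 (adjusted p = 5.27e-09). AT5G12050 rose in both, by 2.05 in pifq and 0.47 in the wild type. In WL24 pifq was lower by 1.32, and against WL0 the difference was 0.56 (adjusted p = 0.294). AT1G10640 fell by 0.35 in pifq and by 1.91 in the wild type, a difference of 1.55 ± 0.17 (adjusted p = 7.95e-07).

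AT2G04050 had the largest difference of all loci with a call, at -2.84 ± 0.40 (adjusted p = 3.24e-05). Its signals were 6.54, 5.18 and 6.01 in pifq FR24, 6.48, 4.83 and 5.07 in pifq WL24, 7.43, 7.76 and 8.44 in WT FR24, and 4.46, 4.95 and 4.34 in WT WL24. The pifq arrays of the conditions overlapped and were spread over more than 1 log2 unit within a group, while the wild type rose 9.81-fold with no overlap. The difference stayed called without any 1 array, between -3.16 and -2.33. AT2G41730 (-1.56 ± 0.24), whose probe set is of a type that can detect several transcripts, AT2G18190 (-1.51 ± 0.22) and AT2G15020 (-1.27 ± 0.19) rose in the wild type by 1.1 to 1.58, while their values in pifq, between -0.46 and 0.30, did not pass the test. AT5G51440 had signals of 5.02, 5.39 and 6.66 in WT FR24. Its difference of -1.27 ± 0.33 (adjusted p = 0.025) was -0.79 without the highest of these, replicate 3 (adjusted p = 0.0598), and was also not called without WT WL24 replicate 3, pifq FR24 replicate 3 or pifq WL24 replicate 1 or 3, nor with array weights (0.0696), the 12 arrays alone (0.112) or a trended robust prior (0.0598).

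Gene groups were described by how many members with a probe set of their own were called, beside 248 positive and 178 negative calls among all 13286 loci (3.21% called, median difference -0.03). Of the same loci, 792 rose and 945 fell by a called amount in pifq, and 1281 rose and 1463 fell in the wild type. Many listed genes had no probe set of their own. One was found for 3 of 35 clock genes, 4 of 24 shade-response markers and 13 of 72 auxin genes. It was also found for 8 of 65 sugar and starch genes and 18 of 40 wall-loosening genes. The counts below cover only members with one. Over all lists, 18 of 129 distinct members were called (13.95%). The lists were made with earlier results of these data known, so that share is a description.

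Wall-loosening genes had 4 positive calls and 0 negative calls among 18 members, with a median of 0.14. The 4 were EXPA8, GH9B8 and the beta-expansin genes EXPB3 and EXPB1. This list leaves out the expansin genes EXPA7 and EXPA18 and the XTH gene XTH26, which were placed in the root list. Those went the other way, at -0.56 for EXPA7 (called), -0.29 for EXPA18 and -0.82 for XTH26 (both not called). EXPB3 fell by 0.42 ± 0.12 in pifq and by 1.19 ± 0.12 in the wild type, a difference of 0.78 ± 0.16 (adjusted p = 0.00444) that was 0.37 against WL0 (adjusted p = 0.334). EXPB1 fell by 0.39 ± 0.11 in pifq and by 0.93 ± 0.11 in the wild type, and its difference of 0.53 ± 0.15 (adjusted p = 0.0391) kept its call only without WT FR24 replicate 3, WT WL24 replicate 2, pifq FR24 replicate 3 or pifq WL24 replicate 3 (otherwise up to 0.126) and was 0.15 against WL0 (adjusted p = 0.792). The 7 XTH members, genes for xyloglucan endotransglucosylases, lay between -0.07 and 0.34 with 0 calls. EXLA1, an expansin-like gene, rose in both genotypes, by 0.79 in pifq and 0.91 in the wild type, and its difference was -0.12 ± 0.16 (adjusted p = 0.735).

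Auxin response genes had 3 positive calls and 0 negative calls among 13 members, with a median of 0.30. Beside IAA29 these were IAA18, for another Aux/IAA protein, and WES1, also known as GH3.5, whose product joins auxin to amino acids. IAA18 fell by 0.39 ± 0.08 in the wild type, with 0.03 ± 0.08 in pifq (adjusted p = 0.838), a difference of 0.42 ± 0.11 that was lost without WT WL24 replicate 1 or 3, pifq FR24 replicate 1 or pifq WL24 replicate 3 (highest adjusted p = 0.0697). WES1 fell by 0.26 ± 0.08 in the wild type, with 0.15 ± 0.08 in pifq (adjusted p = 0.188), a difference of 0.41 ± 0.11 that was lost without WT FR24 replicate 1, WT WL24 replicate 2, pifq FR24 replicate 2 or pifq WL24 replicate 2 (highest adjusted p = 0.0788). Both calls were also lost against WL0, at 0.26 for IAA18 and 0.36 for WES1. GH3.3 (0.53 ± 0.16, adjusted p = 0.06) and GH3.9 (0.58 ± 0.19, adjusted p = 0.0823) did not pass the test. The auxin synthesis genes YUC2, YUC4 and YUC6 lay between -0.19 and -0.11 with 0 calls.

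Of the 4 shade-response markers with a probe set of their own, HAT2 and IAA29 were called positive and 0 were negative. BIM1, for a basic helix-loop-helix protein of brassinosteroid signalling, had 0.27 ± 0.14 (adjusted p = 0.314), and FHL, whose product takes phytochrome A into the nucleus, had -0.20 ± 0.17 (adjusted p = 0.583).

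Among 9 photosystem and Rubisco genes, LHCB4.2 was called positive and LHCB4.3 negative, with a median of 0.04, and the other 7 lay between -0.18 and 0.29. Among 9 genes of chlorophyll and carotenoid synthesis, PORB was the only call, with a list median of 0.00. Of these 9, 5 fell in pifq and 5 in the wild type, 4 of them shared. Among all 13286 loci, 945 fell in pifq and 1463 in the wild type. HEME1, a uroporphyrinogen decarboxylase gene, fell by 0.54 ± 0.08 in pifq and by 0.72 ± 0.08 in the wild type, a difference of 0.18 ± 0.12 (adjusted p = 0.466), and HEME2, its paralog, had a difference of 0.33 ± 0.10 (adjusted p = 0.0709).

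The 3 circadian clock genes with a probe set of their own, of 35 listed, rose in both genotypes and none was called for the difference. GI (GIGANTEA), a regulator of the clock and of flowering, rose by 2.50 in pifq and 3.01 in the wild type, a difference of -0.51 ± 0.18 (adjusted p = 0.121). CCL had -0.19 ± 0.13 (adjusted p = 0.478) and COR27 -0.47 ± 0.19 (adjusted p = 0.193). Of CCL and COR27, both were called against WL0, at -0.56 and -0.86.

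The ascorbate and antioxidant list had 1 positive call among 4 members. This was VTC4 (AT3G02870), whose product acts in ascorbate synthesis, which fell by 1.13 ± 0.09 in pifq and by 1.82 ± 0.09 in the wild type, a difference of 0.69 ± 0.12 (adjusted p = 0.00062). Its arrays did not overlap between conditions in either genotype. The jasmonate, salicylate and defence list had 2 positive calls among 7 members. PDF1.4, a defensin-like gene, had a difference of 0.80 ± 0.18 (adjusted p = 0.00795) that was 0.50 against WL0 (adjusted p = 0.188) and not called with the 12 arrays alone (adjusted p = 0.0633). THI2.2, a thionin gene, rose 12-fold in pifq and 8.17-fold in the wild type, and its difference of 0.55 ± 0.14 (adjusted p = 0.0236) was lost without WT FR24 replicate 3, WT WL24 replicate 2 or pifq FR24 replicate 3 (highest adjusted p = 0.0773) and turned to -0.47 against WL0. The sugar and starch list had 1 negative call, ATSPS4F, among 8 members.

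The seed maturation and late embryo list had 1 positive call among 5 members, LEA4-5, a gene for a protective late embryo protein. It fell by 0.88 ± 0.13 in the wild type, with -0.19 ± 0.13 in pifq (adjusted p = 0.379), a difference of 0.69 ± 0.19 (adjusted p = 0.035). That call held only without WT FR24 replicate 2, WT WL24 replicate 1, pifq FR24 replicate 3 or pifq WL24 replicate 3 (otherwise up to 0.101). LEA4-5 stood higher in pifq in each condition at 24 h, by 1.4 in FR24 and 0.71 in WL24, and by 2.39 in WL0, and against WL0 the difference turned to -0.99 (adjusted p = 0.00201).

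The lists of root hair and root, stomata and epidermis, and vascular and meristem markers gave 2 negative calls. The photosystem and seed lists, which also stand for tissues, held positive calls, as given above. All 3 root hair and root genes with a probe set (33 were listed) rose in both genotypes. Among all 13286 loci, 792 rose in pifq and 1281 in the wild type. The 3 root genes had a median response of 0.38 in pifq and 0.85 in the wild type, and a median difference of -0.56. EXPA7, an expansin gene of root hairs, was called, at -0.56 ± 0.13 (adjusted p = 0.0121), and lost its call without WT FR24 replicate 3 (adjusted p = 0.0531) and against WL0 (-0.14, adjusted p = 0.786). XTH26 (-0.82 ± 0.25, adjusted p = 0.0566) and EXPA18 (-0.29 ± 0.15, adjusted p = 0.29) were not called. Among 5 stomata and epidermis genes TRY was the only call, and the 2 vascular and meristem genes PHV (0.08) and CLV3 (0.02) had none. Whether the share of root tissue had a part in these differences was not tested.

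The other lists gave 0 calls. The 7 flavonoid genes had a median of -0.09 and the 6 abscisic acid and cold genes -0.10. The 5 genes of amino acid degradation, which include those of branched-chain amino acids, had -0.17. The 4 gibberellin genes had 0.03, the 4 glucosinolate genes -0.17 and the 4 cell division genes 0.02. The 3 genes of nitrogen and sulfate assimilation had a median of -0.16, the pairs of cytokinin, ethylene and light signalling genes -0.01, -0.10 and -0.22, the brassinosteroid gene BRL1 a value of -0.13, and the reference genes PEX4 and MON1 a median of 0.03. Against WL0, UGT78D2, a flavonoid glycosyltransferase gene, was called at -0.66 (adjusted p = 0.000883), and EIN3, a transcription factor gene of ethylene response, at -0.44 (adjusted p = 0.0486). The lists of PIF and heat shock genes had 0 members with a probe set of their own.

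With the 12 arrays alone 14 of the 47 named calls were lost, at adjusted p-values up to 0.146. Among genes with a symbol these were PDF1.4, THI2.2, IAA18, WES1, LEA4-5 and EXPB1 of the positive and IMP4, ROXY1, PLIM2a, LPR1, EXPA7, ALDH6B2 and LPA66 of the negative differences.

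The difference between genotypes at 24 h was set against that at 1 h and 3 h, where the controls were the WL0 seedlings, so that no array is shared with the 24 h comparison. At 1 h the difference of responses was called for 108 probe sets (0.475%) and at 3 h for 727 (3.2%), with 356 positive (1.57%) and 371 negative (1.63%). Of the 24 h calls, 5 were also called at 1 h with the same sign and 19 with the opposite sign, together 2.8% of the 24 h and 22.2% of the 1 h calls. For 3 h the numbers were 73 and 50, together 14.4% of the 24 h and 16.9% of the 3 h calls. A test of the 24 h against the 3 h difference, chosen after the data had been seen, called 950 probe sets (4.18%), among them 357 of the 854. The 24 h difference, by which the 854 calls and the genes named from them were picked, is part of that test. Their passing it is therefore partly a result of the choice. That test sets values against different white-light controls, WL0 at 3 h and WL24 at 24 h. With WL0 at both times, which sets FR24 against FR3, it called 1753, of which 710 were shared with the 950.

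Several genes changed sign between the early times and 24 h, and for some of them the sign at 24 h depended on the control. For IAA29 the level averaged 7.96 ± 0.31 in pifq and 9.32 ± 0.14 in the wild type after 1 h of far-red light, and 8.62 ± 0.14 in pifq and 9.59 ± 0.07 in the wild type after 3 h (SD, n = 3), so that pifq was the lower at both early times. In WL0 the genotypes differed by -0.01 (adjusted p = 0.989), at 4.62 ± 0.18 in pifq and 4.63 ± 0.09 in the wild type. The difference of responses was -1.35 ± 0.18 at 1 h, -0.96 ± 0.18 at 3 h and 1.57 ± 0.18 at 24 h, and the last 2 differed by 2.53 ± 0.25 (adjusted p = 1.42e-07). With WL0 at 24 h as well, the value at 24 h was 0.21 (adjusted p = 0.736) and the change from 3 h 1.18 ± 0.18 (adjusted p = 3.89e-05). The genotype difference in level was -1.37 in WL24, against -0.01 in WL0. P1R3 had -1.13 ± 0.20 at 1 h, -0.95 ± 0.20 at 3 h and 1.56 ± 0.20 at 24 h, all called, and 1.31 ± 0.20 at 24 h against WL0 (adjusted p = 9.24e-05). BRH1 had -0.15 at 1 h, which was not called, -0.50 ± 0.11 at 3 h and 0.76 ± 0.11 at 24 h, both called, and 0.49 at 24 h against WL0. LEA4-5 had -1.07 ± 0.19 at 1 h, -1.67 ± 0.19 at 3 h and 0.69 ± 0.19 at 24 h, all called, and at 24 h against WL0 it had -0.99 (adjusted p = 0.00201).

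HAT2 and EXPA8 differed at 24 h and not by a called amount before. HAT2 rose at 1 h by 1.80 ± 0.09 in pifq and 1.90 ± 0.09 in the wild type, and its differences were -0.11 ± 0.13 at 1 h and 0.12 ± 0.13 at 3 h. EXPA8 rose at 3 h by 0.63 ± 0.11 in pifq and 0.88 ± 0.11 in the wild type, and its differences were -0.21 ± 0.15 at 1 h and -0.25 ± 0.15 at 3 h. The change of the difference from 3 h to 24 h was called for both, at 1.17 ± 0.18 for HAT2 and 1.94 ± 0.22 for EXPA8. With WL0 at both times it was 0.66 ± 0.13 for HAT2 (adjusted p = 0.00106) and 1.21 ± 0.15 for EXPA8 (adjusted p = 2.17e-06).

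FHL had the reverse course. At 3 h it rose by 0.37 ± 0.12 in pifq and 2.37 ± 0.12 in the wild type, a difference of -1.99 ± 0.17 (adjusted p = 2.01e-09), and at 24 h no response was called in either genotype. UGT88A1 and VTC4 were positive at both 3 h and 24 h: UGT88A1 had 0.30 at 1 h, 0.70 at 3 h and 0.79 at 24 h, and VTC4 -0.11, 0.85 and 0.69, with the 1 h values not called. Among the loci, AT5G02540 turned, with -0.83 at 1 h, which was not called, -1.02 at 3 h and 1.84 at 24 h (1.36 against WL0), and AT5G48490 grew, with -0.03, 0.92 and 1.89, a change of 0.98 ± 0.16 from 3 h to 24 h (adjusted p = 0.000183).

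**Figure D5:**
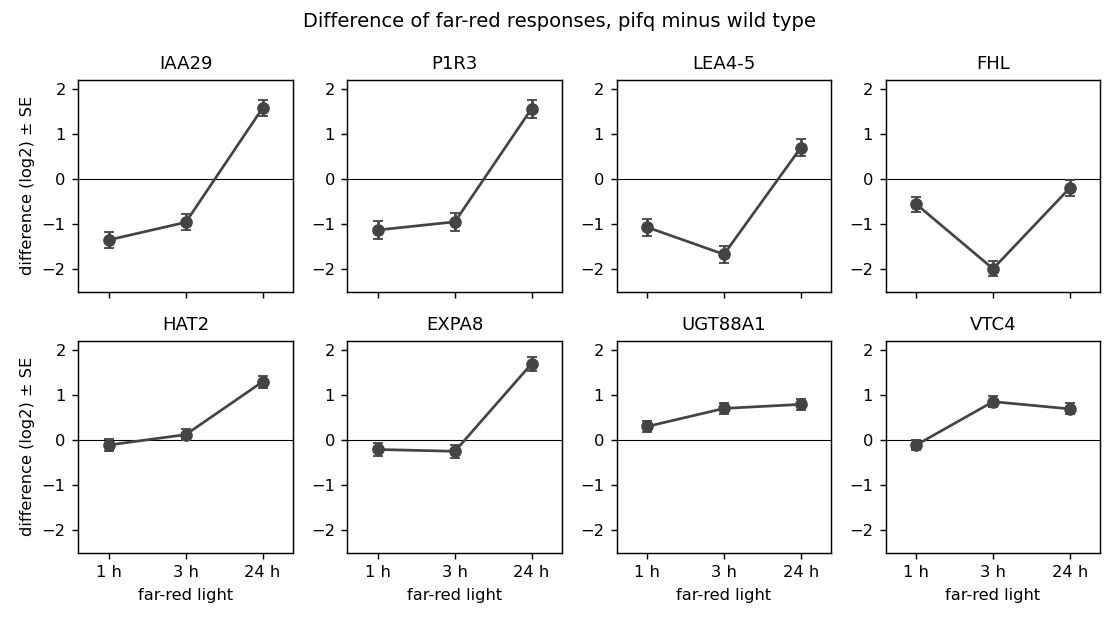
Difference of far-red responses, pifq minus wild type (log2, ± SE), after 1 h, 3 h and 24 h of far-red light for 8 genes. IAA29, P1R3 and LEA4-5 turn from negative to positive, FHL is lowest at 3 h, HAT2 and EXPA8 depart from 0 at 24 h, and UGT88A1 and VTC4 are positive at 3 h and 24 h; the 1 h and 3 h values are against WL0 and the 24 h values against WL24. Against WL0, the 24 h values are 0.21 for IAA29, 1.31 for P1R3 and -0.99 for LEA4-5.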

How the data were processed

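RNA of whole seedlings was hybridised to 1-colour Affymetrix arrays. The authors deposited log2 values made with RMA (version not given), per the submitters' processing notes. RMA includes quantile normalization, which hides any shift common to most transcripts. Precision is limited by having 3 arrays per group.

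Without the 64 control probe sets, 22746 remained and all were tested. Names came from GEO's platform annotation, updated through RefSeq: 13436 probe sets (59.1%) had exactly 1 locus, 503 several genes, 77 a gene ID without a locus, and 8730 no gene. limma 3.58.1 (lmFit, eBayes, in R 4.3.3) fitted a mean for each of the 10 groups, using all 30 arrays, with 20 residual and 9.44 prior degrees of freedom, and two-sided p-values were adjusted by Benjamini-Hochberg. The fit was also run on simulated data with independent normal residuals, which do not represent correlated or outlying arrays.

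Named were the 15 most positive and 15 most negative called genes with a symbol, the 5 most positive and negative called loci without one, up to 6 called members per list (else the 2 of highest mean level), and up to 10 genes with opposite called responses. The members and lists were chosen with earlier results of these data known. Promoter sequences were not analysed here. Alternatives were the fit to 12 arrays, a replicate block, WL0 as control, array weights, median centring, a level filter, a trended robust prior and leaving out each array.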

Additional observations from a re-analysis of the deposited data

Results flagged for a closer look

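For 5 named genes both responses were called and ran in opposite directions, so that the genotypes differed in the sign of the far-red response. All 5 were picked from called differences, so their passing limma's test of the difference was a condition of the choice. EXPA8 (1.69), HAT2 (1.29) and AT5G62280 (1.68) rose in pifq and fell in the wild type. TRY (-0.99) and PDF1A (-0.64) fell in pifq and rose in the wild type. They belong to 45 probe sets with opposite called responses, 31 with a rise in pifq and 14 with a fall.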

How the results depend on the processing

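The count of 854 differences was 389 with only the 12 arrays (378 shared), 467 with WL0 as control (272 shared) and 360 with a replicate block on the 12 arrays. It was 636 to 817 when each array was left out in turn. With the other alternatives it was 682 to 1030. The 1030 came from the level filter, which tested only 10757 probe sets and shared 634 calls with the 854. Calls of at least 2-fold numbered 66 to 94 throughout. The split of 506 positive and 348 negative calls became 459 and 410 with each array centred on its median. Deviations of same-numbered arrays correlated at -0.071 to 0.189 over 18 pairs (median 0.031). Those of differently numbered arrays correlated at -0.154 to 0.124 over 36 pairs (median -0.016). These small values do not decide whether the numbers pair the arrays.

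The count of pifq responses was 2236 with the replicate block and 2212 to 3483 when an array was left out, lowest without pifq WL24 replicate 2. Genotype differences numbered 1222 in FR24 and 1126 in WL24 with the 12 arrays, and 1186 and 1046 with the block. The wild-type median of probe sets that rose at least 2-fold in pifq was 1.30 to 1.48, and of those that fell -1.75 to -1.47, when an array was left out. For the falls in pifq it was -1.60 after median centring and -1.72 with a level filter.

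Of 47 named calls, 33 held with the 12 arrays and 32 with the block, which, unlike the 12 arrays without it, lost ndhG (adjusted p = 0.056) and SBT4.12 (adjusted p = 0.0581). Against WL0 23 held, 20 were lost and 4 turned: NAMT1 -0.30, ROXY1 0.05, THI2.2 -0.47 and LEA4-5 -0.99. The cause was not tested. The level filter, which asked for a highest group mean of at least 6, left 37 of the 47 named calls, and all 37 held. TRY, GH9B8, TBL15, CSLC5, NAMT1, ROXY1, PLIM2a, LPR1, AT2G18190 and AT5G51440 lay below that level and were not tested there. The 950 calls of 24 h against 3 h became 1753 with WL0 at both times (710 shared).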

Other observations

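Some further called genes with a symbol were picked after their values were seen, so they stand for no group. DIM1A, a ribosomal RNA dimethylase gene, had a difference of -0.53 ± 0.11 (adjusted p = 0.00372), PRH75, an RNA helicase gene of the nucleolus, -0.43 ± 0.12 (adjusted p = 0.0371), and PDF1B, the second organellar peptide deformylase gene, -0.54 ± 0.11 (adjusted p = 0.00323). DIM1A rose by 0.46 ± 0.08 and PDF1B by 0.40 ± 0.08 in the wild type, and in pifq their values of -0.07 and -0.14 were not called. PWD, for phosphoglucan water dikinase of starch breakdown, rose by 0.49 ± 0.07 in pifq and by 0.88 ± 0.07 in the wild type, a difference of -0.40 ± 0.10. THIC, of thiamine synthesis, rose by 0.67 ± 0.08 in pifq and by 1.11 ± 0.08 in the wild type, a difference of -0.44 ± 0.11.

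By family name, chosen after the table was seen, the 47 loci of UDP-glycosyltransferases had 2 positive and 3 negative calls (median -0.10), the 22 TBL loci 2 positive and 1 negative (median 0.09), and the 18 expansin and expansin-like loci 4 positive and 1 negative (median 0.02). The 15 GH9 loci had 2 positive calls, GH9B8 and GH9C2, and the 9 XTH loci had 0. The 26 CYP loci had 1 negative call. Positive calls numbered 1 among 15 IQD, 1 among 5 GH3 and 2 among 7 IAA loci, with 0 negative. Over all 13286 loci 3.21% were called. The chloroplast gene psbE, for a subunit of cytochrome b559 of photosystem II, had 0.36 ± 0.10 (adjusted p = 0.0423), opposite in sign to ndhG. For ndhG neither response was called by limma (adjusted p = 0.134 in pifq and 0.051 in the wild type).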
